A study of Mus musculus with 6 samples.

Results

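The 38 genes described here encode proteins that copy DNA and divide the cell, 16 of them in replication and 22 in mitosis. They are a fixed list of gene symbols, and all 38 were found once each among the 23726 gene models of the deposited table. All 38 also passed the filter on low counts, so no member is missing from the tests. The replication genes encode the 6 subunits of the MCM helicase, 2 origin licensing factors, 5 proteins of the replication fork and 3 enzymes of nucleotide supply. The mitosis genes encode 5 mitotic kinases and regulators, 3 spindle checkpoint kinases, 3 centromere and kinetochore proteins, 6 spindle and motor proteins, 3 proteins of anaphase and cytokinesis and 2 proteins of chromosome structure.

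In a dividing cell the MCM helicase is loaded on replication origins in G1, unwinds DNA in S phase, and is followed by the polymerases and by the enzymes that make deoxynucleotides. Mitotic kinases then build the spindle, the checkpoint holds anaphase until chromosomes are attached, and cytokinesis separates the daughter cells. Replication genes are commonly switched on by E2F factors at the start of S phase. Mitosis genes are commonly switched on later, by B-MYB and FOXM1 with the MuvB complex, through an element called CHR. The factor NF-Y acts on many of them through CCAAT boxes. In skin, division normally takes place in the basal layer of the epidermis and in growing hair follicles.

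RNA was sequenced from 6 mouse libraries, of which 5 come from chemical carcinogenesis of the skin by the mutagen DMBA and the tumour promoter TPA. The groups were 1 culture called mSCC-38, described as highly tumorigenic, 1 culture called mSCC-20, described as non tumorigenic, 1 tumour biopsy, 2 distinct papillomas and 1 biopsy of healthy skin. Both cultures were grown out of a DMBA/TPA tumour, and the labels do not say whether it was the same tumour. Strain, sex, age and treatment times are not given in the labels, nor whether the papillomas came from separate mice, so a p-value here rests on the spread of the 2 papillomas alone, part of which may be technical.

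Total counts lay between 25140489 and 42992597 a library, and RNA integrity numbers between 7.5, in skin, and 9.6, in mSCC-38. Levels are in CPM (counts per 1000000 counts of the library, scaled by TMM factors), and a level compared between genes is divided by gene length as well. At this depth a count of 0 would allow 0.0604 to 0.141 CPM, far under the lowest level of any of the 38 genes in any library, 7.03 CPM of Gins2 in papilloma 2. The biopsies are whole tissue, so more dividing cells and more RNA per dividing cell cannot be told apart. All 8 basal keratinocyte markers were counted in both cultures, with sums of 11538 CPM in mSCC-38 and 18083 CPM in mSCC-20. The 8 fibroblast markers summed to 262 CPM in mSCC-38 and 13.4 CPM in mSCC-20, against 4678 CPM in the tumour.

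The promoters of the 2 groups carried different sequence elements, and 6 are shown, from genes higher in papilloma than in skin, because they hold the elements typical of their group. RefSeq promoters, 250 bases before to 50 after the start, were at hand for 31 of the 38 genes. The stretches below are 200 bases long, from build GRCm38.p6, 5′ to 3′ on the gene's strand. They lie at chr7:102441495-102441694 (plus strand, Rrm1), chr8:75109309-75109508 (plus strand, Mcm5), chr4:118437344-118437543 (minus strand, Cdc20), chr7:122159235-122159434 (plus strand, Plk1), chr10:69352913-69353112 (minus strand, Cdk1) and chr11:99024190-99024389 (minus strand, Top2a). Capitals mark CCAAT or its reverse ATTGG, the CHR word TTTGAA with its reverse TTCAAA, the CHR word TTTAAA, which is its own reverse, the E2F word TTCCCGC, the related E2F word TTGGCGC, the E2F variant TTCGCGC and lastly the E2F variant TTGCCGC, each with its reverse.
Rrm1: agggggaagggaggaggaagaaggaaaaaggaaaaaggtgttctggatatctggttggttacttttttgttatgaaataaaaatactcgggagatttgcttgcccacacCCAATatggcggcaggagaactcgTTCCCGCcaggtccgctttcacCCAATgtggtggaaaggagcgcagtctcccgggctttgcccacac
Mcm5: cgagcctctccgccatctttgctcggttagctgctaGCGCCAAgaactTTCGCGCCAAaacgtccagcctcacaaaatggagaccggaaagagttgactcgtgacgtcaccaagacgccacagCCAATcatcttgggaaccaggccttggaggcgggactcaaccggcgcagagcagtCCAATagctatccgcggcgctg
Cdc20: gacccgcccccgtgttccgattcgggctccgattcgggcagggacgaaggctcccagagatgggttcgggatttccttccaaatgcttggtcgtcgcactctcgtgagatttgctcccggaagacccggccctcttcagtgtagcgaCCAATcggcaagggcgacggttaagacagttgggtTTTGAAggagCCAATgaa
Plk1: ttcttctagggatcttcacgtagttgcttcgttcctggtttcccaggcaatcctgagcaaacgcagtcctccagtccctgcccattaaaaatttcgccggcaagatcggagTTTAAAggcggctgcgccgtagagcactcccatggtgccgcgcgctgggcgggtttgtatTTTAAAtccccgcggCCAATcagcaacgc
Cdk1: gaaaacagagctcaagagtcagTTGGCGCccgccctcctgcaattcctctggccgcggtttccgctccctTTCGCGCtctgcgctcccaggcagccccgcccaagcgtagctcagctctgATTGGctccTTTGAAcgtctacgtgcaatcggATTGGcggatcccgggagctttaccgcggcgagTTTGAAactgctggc
Top2a: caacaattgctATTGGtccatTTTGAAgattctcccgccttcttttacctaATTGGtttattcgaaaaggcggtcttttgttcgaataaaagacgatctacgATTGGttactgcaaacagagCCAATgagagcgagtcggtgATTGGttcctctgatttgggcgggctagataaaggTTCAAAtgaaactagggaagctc

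The Rrm1 stretch held 1 E2F word between 2 CCAAT boxes, and no CHR word. The Mcm5 stretch held 3 E2F words, 2 of them overlapping, and 2 CCAAT boxes. In Cdc20 a CHR word lay close upstream of the last CCAAT box, and in Plk1 the CCAAT box followed the second of 2 CHR words. The Cdk1 stretch held all 3 kinds of word, and the Top2a stretch held 5 CCAAT boxes and 2 CHR words.

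A gene was counted as holding a word if any of its promoters did, over the full 300 bases and both strands. Both a CCAAT box and a CHR word were held by 15 of 18 mitosis genes (83.3%), against 3 of 13 replication genes (23.1%) and 12.2% of all 27025 genes. E2F words ran the other way: they were found in 2 of 18 mitosis genes (11.1%), Cdk1 and Mki67, against 10 of 13 replication genes (76.9%) and 10.9% of all genes. CCAAT boxes alone were common to both groups, in 88.9% of mitosis and 69.2% of replication genes, against 41.1% of all. A word match is a description of the sequence and not a bound site.

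**Figure D1:**
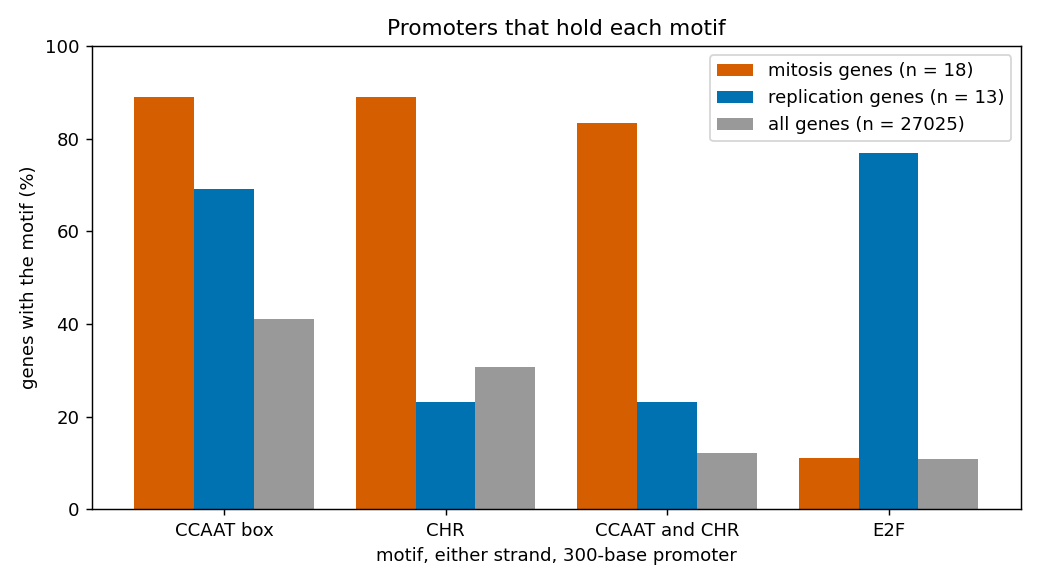
Share of genes with a promoter that holds each motif on either strand (vertical axis, percent of genes; 300-base promoters), for 18 mitosis genes, 13 replication genes and all 27025 genes. CHR words stand at 88.9% of mitosis genes against 23.1% of replication genes, and E2F words at 11.1% against 76.9%.

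The papillomas held more RNA of many of these genes than skin, the mitosis genes more often than the replication genes, though the difference between the groups was not tested. Of 22 mitosis genes, 15 were higher in papilloma than in skin and none was lower, at an adjusted p under 0.05 in edgeR's quasi-likelihood test over 16353 genes. Of 16 replication genes, 5 were higher and none was lower. Among all genes tested, 12.0% were called higher and 14.1% lower. The median edgeR log2 fold change was 0.84 for the mitosis genes and 0.34 for the replication genes, against -0.06 for all genes. At an unadjusted p under 0.05 edgeR gave 17 of 22 mitosis genes and 6 of 16 replication genes, all higher, where 19.9% of all genes were higher and 23.6% lower. DESeq2 likewise called no gene of either group lower.

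Both papillomas lay above skin for 20 mitosis genes and 13 replication genes, and both lay below skin for Espl1, the separase gene, and Gins2, a subunit of the replicative helicase complex. Among all genes tested, both papillomas lay above skin for 41.6% and below it for 48.5%. These counts depend on scaling. With total counts alone the median of all genes moved from -0.06 to -0.48. The calls fell to 3 mitosis genes (Plk1, Cdc20 and Prc1) and 2 replication genes (Rrm1 and Rrm2), where 6.21% of all genes were called higher. Both papillomas then lay above skin for 17 mitosis and 6 replication genes, and the share of all genes is at hand for TMM scaling only. The median of the 38 genes stood 0.73 above that of all genes (log2) under either scaling. A change of scaling moves all genes by about the same amount, so this difference is no check on scaling. Of all genes called in either direction in papilloma against skin, the part called higher was 46.0% with TMM, 22.6% with total counts and 57.4% in DESeq2.

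Among the kinases, Plk1, which drives entry into and passage through mitosis, had 46.6 and 38.1 CPM in the papillomas, against 15.7 CPM in skin. Both papillomas were far above skin, with an edgeR log2 fold change of 1.43 ± 0.19 (SE, n = 2 papillomas and 1 skin, adjusted p = 0.0136). Cdk1, the catalytic kinase of mitotic entry, had 76.5 and 68.4 CPM in the papillomas and 35.2 CPM in skin, a fold of 2.06 (edgeR adjusted p = 0.0187). Aurka, a centrosome kinase, had 37.2 and 29.2 CPM in the papillomas and 17.9 CPM in skin (edgeR adjusted p = 0.0385). Its relative Aurkb, the kinase of the chromosomal passenger complex, did not pass, with 32.6 and 27.5 CPM in the papillomas against 20.6 CPM in skin (edgeR adjusted p = 0.0862). Foxm1, a transcription factor of mitosis genes, did not pass either: it had 40.0 and 38.2 CPM in the papillomas and 30.4 CPM in skin (edgeR adjusted p = 0.118).

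Cdc20, the activator of the anaphase-promoting complex, had the largest papilloma fold of the 38 genes. It had 69.3 and 46.7 CPM in the papillomas, against 21.3 CPM in skin, with an edgeR log2 fold change of 1.45 ± 0.28 (SE, adjusted p = 0.0266). It was also the gene on which the papillomas differed most, papilloma 1 standing 1.49-fold above papilloma 2. Its gene, at chr4:118105506-118109948 in build mm9, overlaps Elovl1 on the opposite strand, and whether the counting used strand is not given. Birc5, which encodes survivin, a passenger complex subunit, had 60.8 and 47.9 CPM in the papillomas and 24.7 CPM in skin, a fold of 2.20 (edgeR adjusted p = 0.0221). Espl1, whose protease product opens the cohesin ring, had 30.8 and 30.2 CPM in the papillomas against 35.3 CPM in skin, and did not pass (edgeR adjusted p = 0.319).

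Of the spindle genes, Prc1, which bundles the microtubules of the central spindle, had 87.2 and 80.5 CPM in the papillomas and 35.9 CPM in skin. Its edgeR log2 fold change was 1.23 ± 0.16 (SE, adjusted p = 0.0133), the smallest adjusted p of the 38 genes. Kif20a, Tpx2 and Kif11, a cytokinesis motor, a spindle assembly factor and the motor that separates the spindle poles, rose 1.80-fold, 1.79-fold and 1.60-fold. Kif23, a motor of the central spindle, missed the threshold at a fold of 1.45 (edgeR adjusted p = 0.0552). Nusap1, a spindle protein, had 28.2 and 31.5 CPM in the papillomas against 26.8 CPM in skin and did not pass (edgeR adjusted p = 0.477).

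Of 3 checkpoint kinases 2 rose, as did 2 of 3 centromere genes. Bub1 had 34.2 and 35.2 CPM in the papillomas against 18.7 CPM in skin (edgeR adjusted p = 0.0197), and Bub1b rose 1.67-fold. Ttk, the third kinase, had 43.2 CPM in papilloma 1 and 30.8 CPM in papilloma 2, against 31.1 CPM in skin, so that its papillomas fell on both sides of skin. Cenpe, a kinetochore motor, rose 1.91-fold and Cenpa, the centromeric histone H3 variant, 1.60-fold, whereas Cenpf, a kinetochore protein, had a fold of 1.21 and did not pass (edgeR adjusted p = 0.231). Both chromosome genes rose. Top2a, the topoisomerase that untangles sister chromatids, had 326 and 278 CPM in the papillomas against 151 CPM in skin, and Mki67, whose Ki-67 protein coats mitotic chromosomes, had 222 and 241 CPM in the papillomas against 127 CPM in skin.

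Among the replication genes, the calls fell on the helicase and on ribonucleotide reductase. Rrm1, the large subunit of this enzyme that makes deoxynucleotides, had 270 and 218 CPM in the papillomas against 95.9 CPM in skin, an edgeR log2 fold change of 1.35 ± 0.24 (SE, adjusted p = 0.0217). Rrm2, its small subunit, had 116 and 94.97 CPM in the papillomas against 42.5 CPM in skin, with edgeR giving 1.32 ± 0.21 on the log2 scale (adjusted p = 0.0184). Tyms, the thymidylate synthase gene, had 33.0 and 29.2 CPM in the papillomas against 24.7 CPM in skin and did not pass (edgeR adjusted p = 0.185).

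The 6 helicase subunits work as 1 ring but did not all pass. Mcm5 had 180 and 132 CPM in the papillomas against 72.7 CPM in skin, and edgeR gave 1.11 ± 0.26 on the log2 scale (SE, adjusted p = 0.0396). Mcm4 rose 1.94-fold and Mcm3 1.68-fold. Mcm2, Mcm6 and Mcm7 had folds of 1.42, 1.27 and 1.18 and did not pass (edgeR adjusted p = 0.0854, 0.210 and 0.277). Whether subunits differ in their response was not tested.

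None of the 5 fork genes and neither licensing gene passed. Pcna, the sliding clamp, had 18.8 and 21.8 CPM in the papillomas against 20.1 CPM in skin, and edgeR gave 0.02 ± 0.19 on the log2 scale (SE, adjusted p = 0.937). Gins2 had 7.31 and 7.03 CPM in the papillomas against 9.17 CPM in skin (edgeR adjusted p = 0.332). Rfc4, a clamp loader subunit, Pole, the leading strand polymerase, and Prim1, the primase, had log2 fold changes of -0.04, 0.20 and 0.34. Cdc6 and Cdt1, which load the helicase, had log2 fold changes of 0.53 and 0.30 (edgeR adjusted p = 0.125 and 0.194).

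**Figure D2:**
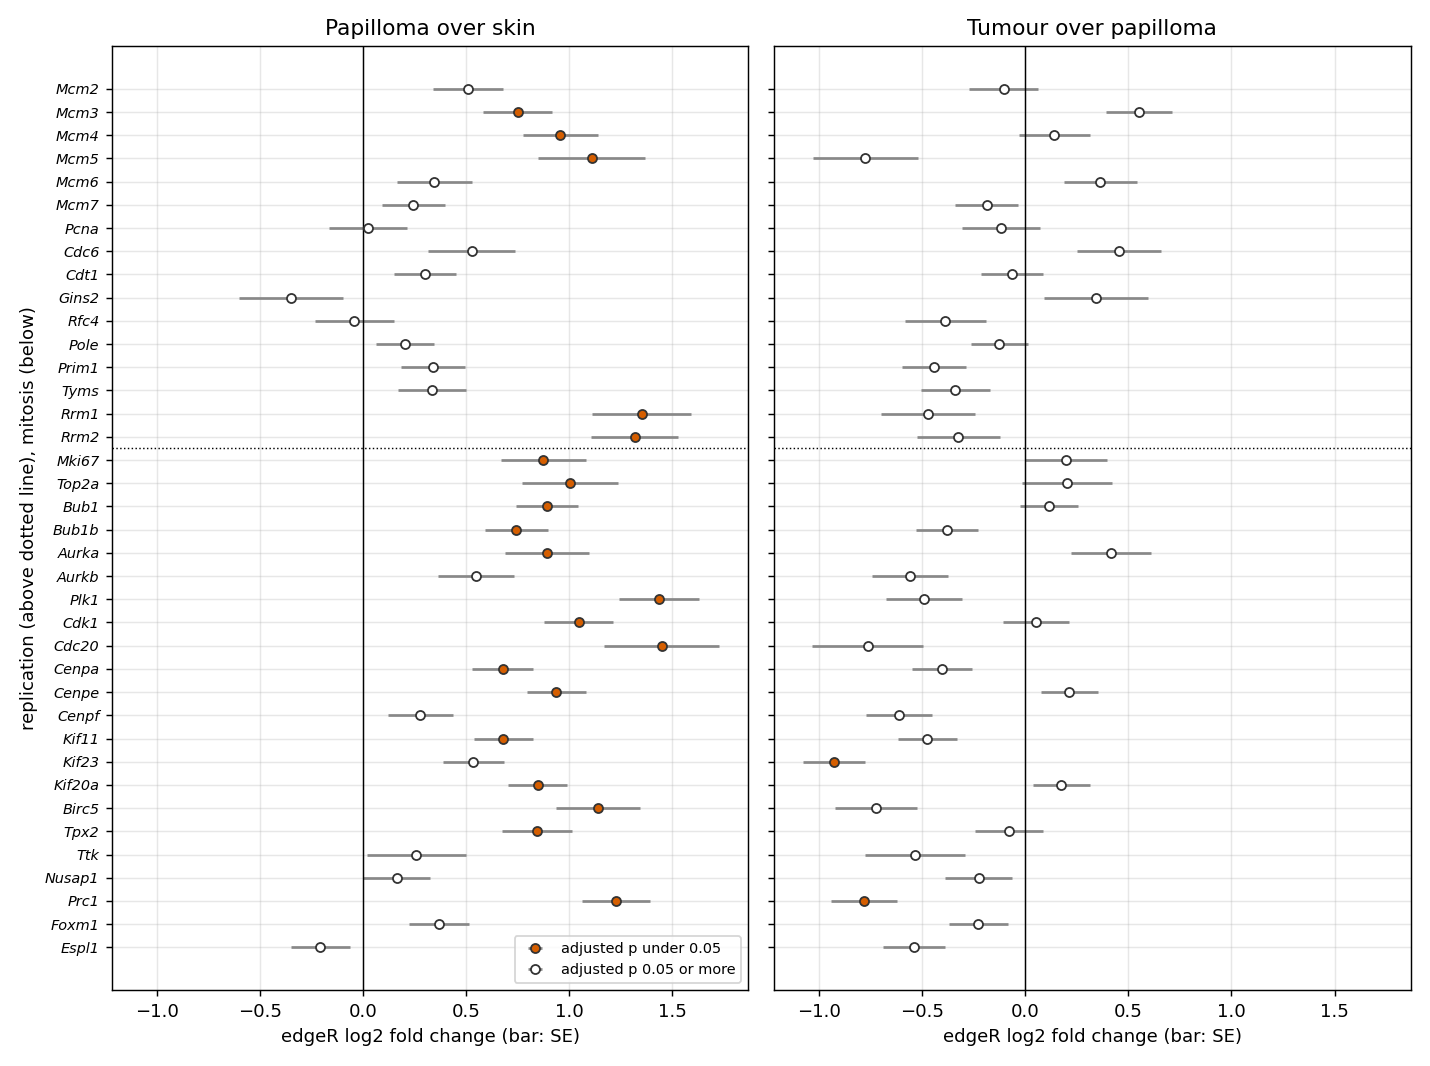
edgeR log2 fold change of each gene (horizontal axis, bars show the SE) for papilloma over skin on the left and tumour over papilloma on the right; replication genes stand above the dotted line, mitosis genes below it, and filled points have an adjusted p under 0.05. On the left 20 of 38 points are filled, all to the right of 0, and on the right 2 are filled, Kif23 and Prc1, both to the left of 0.

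Markers of hair, muscle, fat and both keratinocyte layers moved with the comparison of papilloma and skin. The 15 hair follicle markers summed to 40.5 and 6240 CPM in the papillomas, against 22002 CPM in skin, and none passed. The 10 skeletal muscle markers summed to 1895 and 1142 CPM in the papillomas against 9723 CPM in skin, and 9 of the 10 were lower at an edgeR adjusted p under 0.05. The 8 basal keratinocyte markers summed to 35213 and 26680 CPM in the papillomas against 8067 CPM in skin, where 3 passed as higher and 2 as lower. The 8 suprabasal keratinocyte markers summed to 27657 and 23615 CPM in the papillomas against 9571 CPM in skin, with 3 higher and 1 lower. Of 8 adipocyte markers 6 were lower, with sums of 1331 and 786 CPM in the papillomas against 1275 CPM in skin. None of these lists had a marker at 0 in a biopsy. RNA integrity was 8.4 and 8.2 in the papillomas against 7.5 in skin. Their part in the rise of the mitosis and replication genes was not tested.

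Between tumour and papilloma few of the 38 genes passed. None was higher in the tumour by the edgeR test, or by DESeq2, and 1, Mcm3, had an unadjusted p under 0.05 as higher. Of the mitosis genes 2 were lower, and of the replication genes none. At an unadjusted p under 0.05, 10 of 22 mitosis and 2 of 16 replication genes were lower, where 19.8% of all genes were higher and 18.7% lower, so the replication count is not above that share. DESeq2 called 1 replication gene, Mcm5, lower. Among all genes edgeR called 11.9% higher and 10.6% lower, so 2 of 22 mitosis genes is not above that share. The tumour lay below both papillomas for 14 mitosis and 11 replication genes and above both for 6 and 5, where all genes lay below both in 42.3% and above both in 43.7%. With total counts alone the tumour lay below both papillomas for 13 mitosis and 7 replication genes. This comparison shares its papillomas with the preceding one, so the values of both are not independent.

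Kif23, which with Racgap1 forms the complex that bundles the central spindle, had 35.6 CPM in the tumour, against 66.2 and 68.6 CPM in the papillomas. By edgeR it stood at -0.93 ± 0.15 on the log2 scale (SE, adjusted p = 0.0168), and the tumour lay under skin as well, which had 46.7 CPM. Prc1 had 49.0 CPM in the tumour against 87.2 and 80.5 CPM in the papillomas, which edgeR put at -0.78 ± 0.16 on the log2 scale (adjusted p = 0.0306). Both genes act at the central spindle late in mitosis, but whether genes of that stage differ from the other members was not tested. With total counts alone neither passed (edgeR adjusted p = 0.0526 for Kif23 and 0.0640 for Prc1).

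Other mitosis genes had values in the same direction without passing. Cdc20 had 34.3 CPM in the tumour against 69.3 and 46.7 CPM in the papillomas (edgeR adjusted p = 0.109). Birc5 had 33.0 CPM in the tumour against 60.8 and 47.9 CPM in the papillomas, and Cenpf had 31.5 CPM in the tumour against 44.9 and 50.9 CPM in the papillomas (edgeR adjusted p = 0.0619 and 0.0535). Without the filter on low counts Birc5 and Cenpf passed as lower. On the other side, Mcm3 had 96.6 CPM in the tumour against 69.2 and 62.1 CPM in the papillomas, which edgeR put at 0.55 ± 0.16 on the log2 scale (adjusted p = 0.0698).

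Markers of the suprabasal keratinocyte layer, of leukocytes and of skeletal muscle moved with this comparison. The 8 suprabasal keratinocyte markers summed to 500 CPM in the tumour against 27657 and 23615 CPM in the papillomas, with 7 lower at an edgeR adjusted p under 0.05. The 8 leukocyte markers summed to 408 CPM in the tumour against 201 and 213 CPM in the papillomas, and 5 were higher. The 10 skeletal muscle markers summed to 673 CPM in the tumour against 1895 and 1142 CPM in the papillomas, with 1 lower. The 15 hair follicle markers summed to 31.7 CPM in the tumour against 40.5 and 6240 CPM in the papillomas, and none passed. The 8 basal keratinocyte markers summed to 30303.5 CPM in the tumour, between the papillomas at 35213 and 26680 CPM, and 2 passed as higher. No marker of these lists was at 0 in the tumour. Their part in the values of Kif23 and Prc1 was not tested.

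Set against skin directly, with 1 library a side and no test, 9 of the 37 genes with at least 10 CPM in either library were at least 2-fold higher in the tumour and none was 2-fold lower. Among all 11114 such genes 15.8% were 2-fold higher and 16.6% lower. With total counts alone 2 genes, Mcm3 and Aurka, were 2-fold higher and 1, Espl1, was 2-fold lower. With TMM scaling the 9 were Mcm3, Mcm4, Mki67, Top2a, Bub1, Aurka, Cdk1, Cenpe and Kif20a. Aurka had 44.4 CPM in the tumour and 17.9 CPM in skin, a ratio of 2.48 (95% exact counting interval 2.29 to 2.69), and Mcm3 had 96.6 CPM in the tumour and 39.2 CPM in skin, a ratio of 2.47 (2.34 to 2.60). Intervals cover counting error only. The tumour lay above skin for 16 mitosis and 11 replication genes, or for 13 and 8 with total counts alone. Among all 11114 genes with at least 10 CPM in either library, it lay above skin for 6115 with TMM scaling. For total counts alone that number is not at hand, but the median log2 ratio of all these genes moved from 0.11 to -0.18. Espl1 had the lowest ratio, with 21.1 CPM in the tumour and 35.3 CPM in skin. Leukocyte markers summed to 408 CPM in the tumour and 244 CPM in skin, and hair follicle markers to 31.7 CPM in the tumour and 22002 CPM in skin. Skeletal muscle markers summed to 673 CPM in the tumour and 9723 CPM in skin, with 10 of 10 at least 2-fold lower. Suprabasal keratinocyte markers summed to 500 CPM in the tumour and 9571 CPM in skin, and adipocyte markers to 848 CPM in the tumour and 1275 CPM in skin, with 7 of 8 in each list at least 2-fold lower. RNA integrity was 9.1 in the tumour and 7.5 in skin. Their part in these ratios was not tested.

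**Figure D3:**
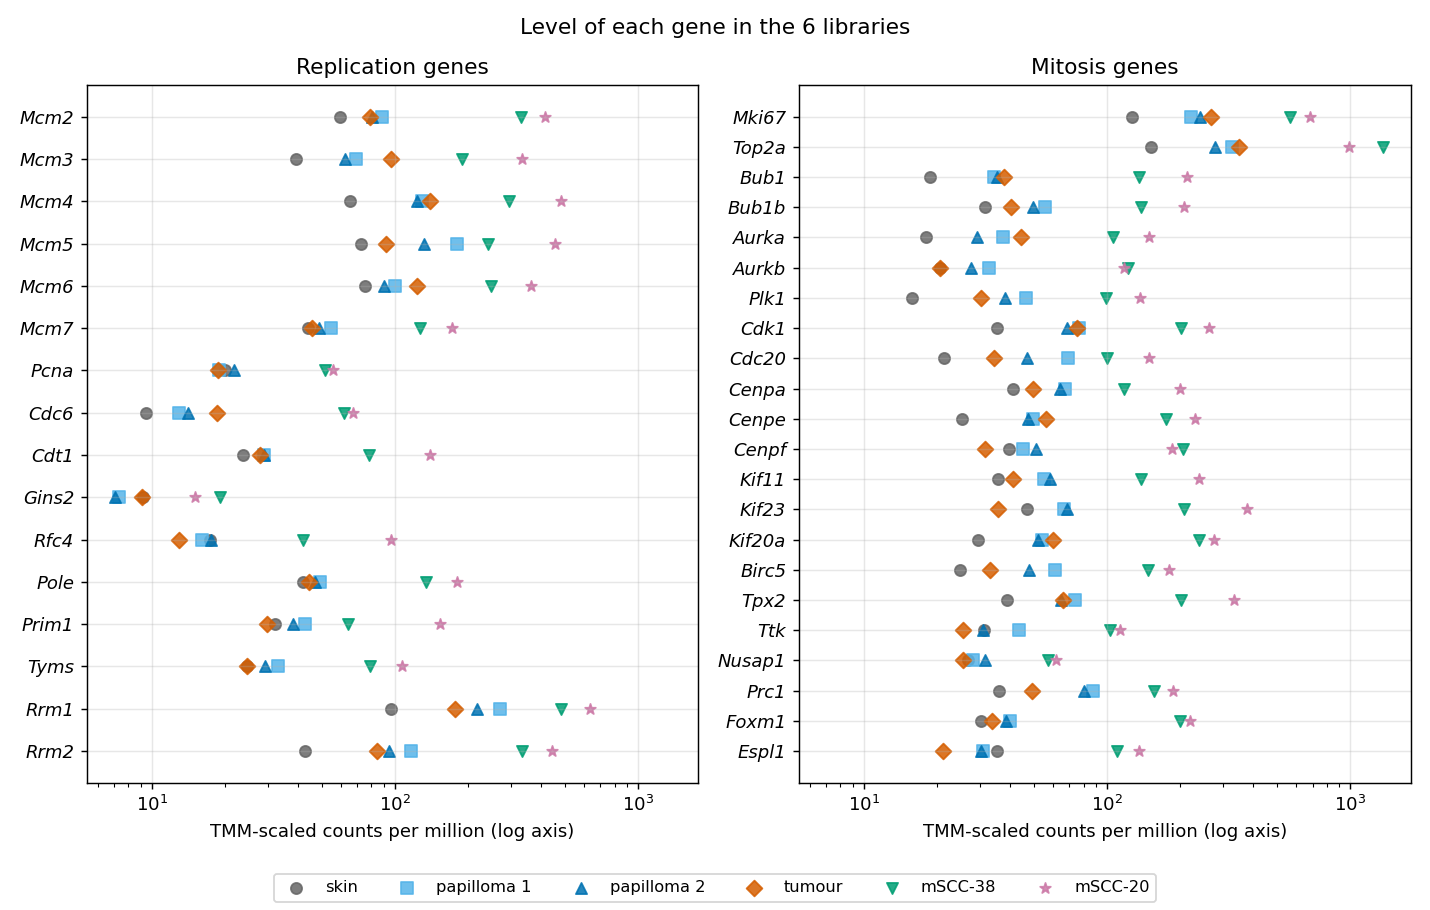
Level of each gene in each of the 6 libraries (horizontal axis, TMM-scaled CPM on a log axis; 1 point is 1 library), with replication genes on the left and mitosis genes on the right. The points of mSCC-38 and mSCC-20 lie to the right of all 4 biopsies for each of the 38 genes, and skin lies farthest left for many, such as Plk1 at 15.7 CPM.

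The cultures stood above every biopsy. All 16 replication and all 22 mitosis genes were higher in both cultures than in any of the 4 biopsies, also with total counts alone and with DESeq2 size factors, where this held for 27.4% of 11839 genes with at least 10 CPM. The 38 genes took 0.820% of all counts in mSCC-38 and 0.968% in mSCC-20, against 0.240% in the tumour, 0.239% in each papilloma and 0.186% in skin.

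In mSCC-38, 37 of 38 genes were at least 2-fold above the tumour, and 14.7% of all genes were. The exception was Mcm3, at 1.96-fold. In mSCC-20, 37 of 38 were at least 2-fold above the tumour, and 24.8% of all genes were, the exception being Gins2 at 1.65-fold. None of the 38 was 2-fold below the tumour in either culture, where 17.1% of all genes were in mSCC-38 and 23.0% in mSCC-20. At least 4-fold above the tumour were 7 of the 38 genes in mSCC-38 and 24 in mSCC-20, where 3.09% and 6.48% of all genes were. These are single libraries without a test.

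The median log2 ratio to the tumour was 1.75 for mitosis and 1.46 for replication genes in mSCC-38, and 2.18 and 1.96 in mSCC-20, while all genes had medians of 0.13 and 0.18. Cenpf had the highest ratio in mSCC-38, 6.54, with 206 CPM against 31.5 CPM in the tumour. Kif23 had the highest in mSCC-20, 10.6, with 378 CPM against 35.6 CPM in the tumour. Foxm1 had 199 CPM in mSCC-38 and 219 CPM in mSCC-20, against 33.5 CPM in the tumour. Pcna had 51.6 CPM in mSCC-38 and 55.4 CPM in mSCC-20, against 18.8 CPM in the tumour, so that the clamp gene, which passed neither biopsy test, was 2.74-fold and 2.95-fold higher in culture. Leukocyte markers summed to 23.1 CPM in mSCC-38 and 8.34 CPM in mSCC-20, against 408 CPM in the tumour, with Cd3e, a T cell receptor chain, at 0 in both cultures. Endothelial markers summed to 14.9 and 28.3 CPM in mSCC-38 and mSCC-20, against 222 CPM in the tumour. The part of these other cells, and of growth in culture, in the ratios was not tested.

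Between the cultures most of the 38 genes were lower in the highly tumorigenic one, by less than 2-fold. In mSCC-38, 34 of 38 genes lay below mSCC-20, 19 of them mitosis and 15 replication genes, where 57.0% of all genes with at least 10 CPM did. With total counts alone it was 33, as Pcna then lay slightly above. At least 2-fold lower were only Prim1 and Rfc4, where 14.3% of all genes were, and none was 2-fold higher, where 14.8% of all genes were. The median log2 ratio was -0.34 for mitosis and -0.43 for replication genes, against -0.15 for all genes. There is 1 library of each culture, so the intervals below cover counting error and not the spread between cultures.

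Prim1 had 64.3 CPM in mSCC-38 and 154 CPM in mSCC-20, a ratio of 0.418 (95% exact interval 0.397 to 0.440). Rfc4 had 41.9 CPM in mSCC-38 and 96.8 CPM in mSCC-20, a ratio of 0.433 (0.406 to 0.461). The Rfc4 gene overlaps Eif4a2 on the other strand. Mcm5 followed, with 241 CPM in mSCC-38 and 457 CPM in mSCC-20, a ratio of 0.528. Among mitosis genes Kif23 was lowest, with 208 CPM in mSCC-38 and 378 CPM in mSCC-20, a ratio of 0.550 (0.534 to 0.566). Kif11, Cenpa and Tpx2 had ratios of 0.579, 0.590 and 0.602.

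Top2a went the other way, with 1360 CPM in mSCC-38 and 989 CPM in mSCC-20, a ratio of 1.38 (1.36 to 1.40). Gins2 had 19.1 CPM in mSCC-38 and 15.1 CPM in mSCC-20, a ratio of 1.27 (1.12 to 1.43), and Cenpf a ratio of 1.11 (1.07 to 1.15). Aurkb had 121 CPM in mSCC-38 and 117 CPM in mSCC-20, and its interval of 0.990 to 1.08 included 1. Pcna, Foxm1, Nusap1, Cdc6 and Ttk were close to even, at ratios of 0.931, 0.910, 0.925, 0.920 and 0.908.

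**Figure D4:**
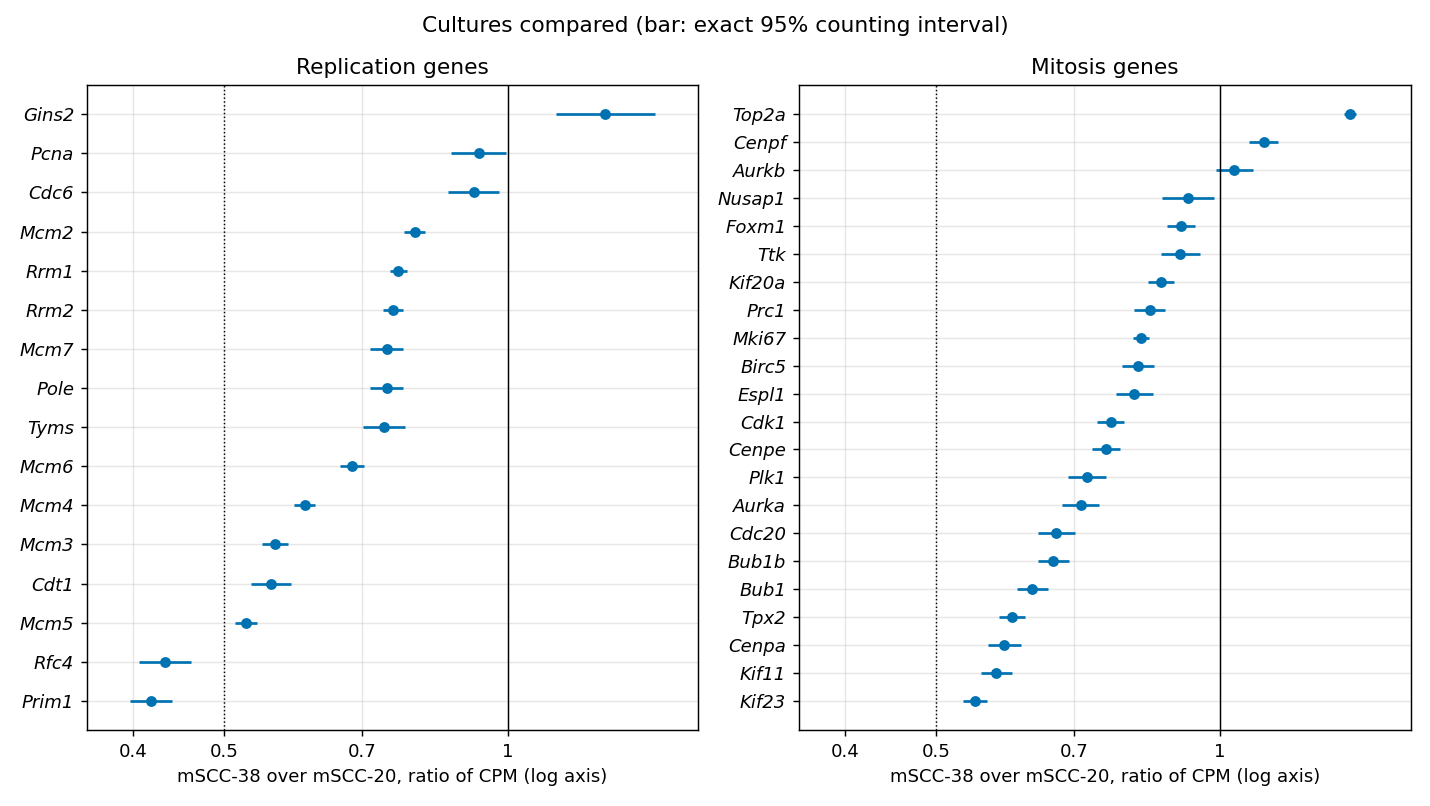
Ratio of CPM in mSCC-38 over mSCC-20 for each gene (horizontal log axis; bars are exact 95% counting intervals; solid line at 1, dotted line at 0.5), with replication genes on the left and mitosis genes on the right. Prim1 and Rfc4 lie left of the dotted line at 0.418 and 0.433, and Top2a lies farthest right at 1.38.

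Set against each other within a library, the 2 groups stayed close in summed level per gene length. The mitosis sum was 232 CPM per kilobase in skin, 438 and 391 in the papillomas, 358 in the tumour, 1216 in mSCC-38 and 1491 in mSCC-20. The replication sum was 245 CPM per kilobase in skin, 414 and 364 in the papillomas, 352 in the tumour, 958 in mSCC-38 and 1442 in mSCC-20. The ratio of the mitosis to the replication sum, in which scaling between libraries cancels, was 0.949 in skin, 1.06 and 1.07 in the papillomas, 1.02 in the tumour, 1.27 in mSCC-38 and 1.03 in mSCC-20. Without the most abundant gene of each group it was 0.921 in skin, 1.08 and 1.09 in the papillomas, 0.945 in the tumour, 1.19 in mSCC-38 and 1.05 in mSCC-20. The order of the libraries thus kept mSCC-38 at the top and skin at the bottom, with no test of the order.

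Per kilobase, Top2a was the highest of the 38 in mSCC-38, at 262 CPM, and in the tumour, at 67.4 CPM. Rrm2 was highest in mSCC-20, at 204.0 CPM per kilobase, Rrm1 in the papillomas, at 67.8 and 54.9 CPM per kilobase, and Cenpa in skin, at 30.9 CPM per kilobase. Cdc6 was lowest in each library except the tumour, where Cenpf was. The median log2 ratio of mitosis genes minus that of replication genes was 0.50 in papilloma against skin, -0.27 in tumour against papilloma, 0.15 in tumour against skin and 0.09 in mSCC-38 against mSCC-20. Genes are not replicates of a condition, and these differences were not tested.

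**Figure D5:**
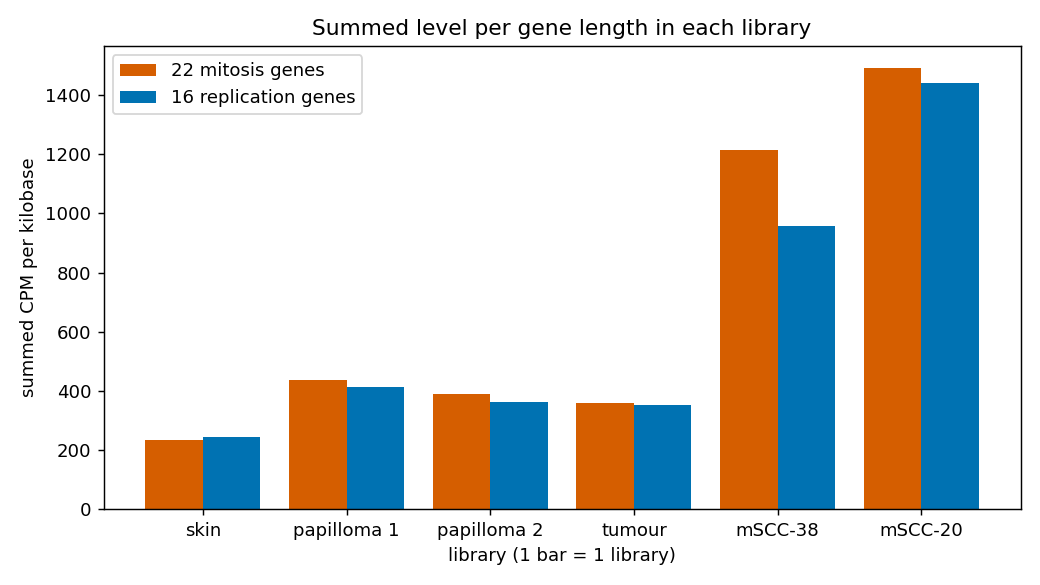
Summed level per gene length (vertical axis, CPM per kilobase) of the 22 mitosis genes and the 16 replication genes in each library (1 bar is 1 library). The 2 bars differ most in mSCC-38, at 1216 against 958, and skin is the library whose mitosis bar is clearly the shorter one, at 232 against 245.

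The papillomas differed by less than 2-fold on each of these genes. Papilloma 1 lay above papilloma 2 for 28 of the 38 genes, against 52.3% of all genes, and for 17 with total counts alone. Its ratio to papilloma 2 ranged from 0.865 for Pcna through a median of 1.09 to 1.49 for Cdc20. The papillomas differed far more in hair follicle markers, which summed to 40.5 CPM in papilloma 1 and 6240 CPM in papilloma 2.

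Wider lists of the same pathways were read beside the 38 genes. In papilloma against skin, 12.0% of all genes were called higher and 14.1% lower. Of 64 other mitosis genes tested, 35 were higher in papilloma than in skin and none lower, with a median edgeR log2 fold change of 0.79, and of 44 other replication genes 11 were higher and none lower, with a median of 0.28. At an unadjusted p under 0.05 these lists had 46 and 14 genes, all higher, against the 19.9% of all genes that were higher at that threshold. The highest were Anln, an actin-binding protein of cytokinesis, with 117 and 109 CPM in the papillomas against 47.3 CPM in skin, and Tacc3 and Ube2c, a spindle protein and a ubiquitin-conjugating enzyme of the anaphase-promoting complex, with log2 fold changes of 1.23 each. Among replication genes Gmnn, which encodes geminin, an inhibitor of relicensing, rose by 1.21, Orc1, an origin recognition subunit, by 1.10 and Dbf4, the activator of the Cdc7 kinase, by 0.96 on the log2 scale.

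In tumour against papilloma, 2 of 64 other mitosis genes were higher, Sgol2 and Aspm, 2 were lower, Ckap2 and Ube2c, and no other replication gene passed. Both mitosis counts are under the shares of all genes, 11.9% higher and 10.6% lower. At an unadjusted p under 0.05, 5 of the 64 mitosis genes were higher and 10 lower. Of the 44 replication genes 3 were higher and 4 lower at that threshold. All of these are under the shares of all genes, 19.8% and 18.7%. Sgol2, a protector of centromeric cohesion, had 52.0 CPM in the tumour against 23.6 and 21.8 CPM in the papillomas (edgeR adjusted p = 0.00973). Aspm, a spindle pole protein, had 52.3 CPM in the tumour against 26.8 and 32.5 CPM in the papillomas (edgeR adjusted p = 0.0334).

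Between the cultures, 3 of 63 other mitosis and 8 of 44 other replication genes were at least 2-fold lower in mSCC-38, and none of either was 2-fold higher, where 14.3% of all genes were 2-fold lower and 14.8% higher. The replication count at 2-fold is thus near the share of all genes. At any size, 40 of the 44 replication and 54 of the 63 mitosis genes were lower in mSCC-38, against 57.0% of all genes. Their median log2 ratios were -0.76 and -0.38, against -0.15 for all genes, without a test. Orc2, an origin recognition subunit, had 65.4 CPM in mSCC-38 and 216 CPM in mSCC-20, and Asf1b, a histone chaperone, had 56.7 CPM in mSCC-38 and 174 CPM in mSCC-20. Ccnb2, a mitotic cyclin, ran against this, with 131 CPM in mSCC-38 and 74.7 CPM in mSCC-20.

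Regulators upstream of these genes were mixed. In papilloma against skin, 12.0% of all genes were called higher and 14.1% lower. Of 19 E2F, pocket protein and MuvB genes, 6 were higher in papilloma than in skin and 1, Tfdp2, a partner of E2F proteins, was lower. E2f8 and E2f7, the atypical repressors of the family, led them: E2f8 had 121 and 96.5 CPM in the papillomas against 21.9 CPM in skin (edgeR log2 fold change 2.32 ± 0.23, SE, adjusted p = 0.00805), and E2f7 had 59.8 and 46.7 CPM in the papillomas against 13.7 CPM in skin. Of 9 G1 cyclins and kinases, 3 were higher and 1 lower in papilloma. The lower one was Ccnd2, the cyclin D2 gene, with 340 CPM in skin, 71.7 and 115 CPM in the papillomas and 454 CPM in the tumour. It fell in papilloma against skin and rose in tumour against papilloma (edgeR adjusted p = 0.0207 and 0.0123). Ccnd1, the cyclin D1 gene, had 145 CPM in skin, 481 and 506 CPM in the papillomas and 1419 CPM in the tumour, and rose in papilloma against skin and again in tumour against papilloma (edgeR adjusted p = 0.0158 and 0.0145). Cdk6, a kinase partner of cyclin D, rose in both comparisons as well, with 4.81 CPM in skin, 19.97 and 19.7 CPM in the papillomas and 40.5 CPM in the tumour.

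Of 9 cell cycle inhibitors tested, 2 were higher and 2 lower in papilloma than in skin, and 3 were higher and 3 lower in tumour than in papilloma. Among all genes 12.0% were called higher and 14.1% lower in the former comparison, and 11.9% and 10.6% in the latter. Cdkn2a, which encodes the inhibitor p16 and the protein Arf, had 0.241 CPM in skin, 14.0 and 11.8 CPM in the papillomas and 96.5 CPM in the tumour. It had 0 counts in mSCC-38, which allows up to 0.0905 CPM, and 23.8 CPM in mSCC-20. Cdkn1b, the p27 gene, had 160.3 CPM in mSCC-38 and 50.8 CPM in mSCC-20, and fell in papilloma, with 59.4 and 71.4 CPM in the papillomas against 126 CPM in skin (edgeR adjusted p = 0.0275).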

How the data were processed

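Qiazol-extracted total RNA went into a NEB small RNA kit for SOLiD sequencing, per the labels' protocols, and per the submitters' processing notes the build was mm9. Such a kit is made for short RNA, while the table counts whole gene models, and how longer RNA entered the libraries is not stated, so levels per kilobase rest on the deposited gene lengths alone. Which aligner and counter were used, and whether strand was, is not given in the sources used here. The authors deposited raw counts and RPKM values per gene model, per the file headers; the RPKM totals were 99.18% to 99.57% of the summed counts and RPKM served only as a check. Reads of overlapping models could not be separated; Mcm7, Gins2, Rfc4, Cdc20, Kif20a, Nusap1 and Foxm1 overlap another model, and Tyms has a pseudogene.

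The papillomas were tested against skin, and the tumour against the papillomas, with edgeR 4.0.16 (quasi-likelihood, TMM, default filter, Benjamini-Hochberg adjustment, R 4.3.3, limma 3.58.1) in 1 fit of the 4 biopsies over 16353 genes, tested on simulated data. The only residual degree of freedom, 1 of a total of 4.81 after moderation, came from the 2 papillomas, so skin and tumour are assumed to vary alike. A gene that did not pass is not shown to be unchanged, as most 2-fold changes set into the simulated data did not pass either. SEs were worked back from the F statistic. Single libraries were compared by a ratio of at least 2 with at least 10 CPM in the higher, 0.5 CPM being added for log2 ratios, with exact Clopper-Pearson 95% intervals that cover counting error only. Alternatives were DESeq2 1.42.0, other scalings, no filter, all 6 libraries in the fit and leaving out each papilloma. All 38 members were named; of each wider list, the 3 highest and 3 lowest per comparison could be. Members and lists were chosen with earlier results of these data known. Promoters were matched by symbol to RefSeq tables (GRCm38.p6), and no coordinate was converted between builds.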

Additional observations from a re-analysis of the deposited data

How the results depend on the processing

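Of the 20 genes called higher in papilloma against skin, 5 (Rrm1, Rrm2, Plk1, Cdc20 and Prc1) kept their call in all 5 alternative fits and 15 lost it with total counts only, which left 5 of 38 genes called, 2 replication and 3 mitosis. Of all genes, 6.21% were called higher with total counts, against 12.0% in the main fit. With DESeq2 size factors Mcm5, Mki67, Top2a and Aurka also lost their call. In tumour against papilloma the genes called lower numbered 0 with total counts (0 mitosis) and 4 without the filter on low counts (4 mitosis), and DESeq2 called 1 replication gene lower. In tumour against skin, 2 genes were past 2-fold higher and 1 lower with total counts, and 0 higher at 4-fold. At 4-fold, 0 genes were lower in mSCC-38 than in mSCC-20, 7 were higher in mSCC-38 than in the tumour and 24 in mSCC-20. None of the 22 calls of the edgeR fit changed direction in these fits, but with total counts genes near even did, and the medians of the replication genes were -0.09 in papilloma against skin, 0.01 in tumour against papilloma and -0.01 in tumour against skin.

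The ratio of mitosis to replication sums depended on the measure. With CPM not divided by gene length it was 1.31 in skin, 1.32 and 1.40 in papillomas 1 and 2, 1.39 in the tumour, 1.76 in mSCC-38 and 1.37 in mSCC-20. As a ratio of medians over genes it was 0.533, 0.717, 0.670, 0.556, 0.961 and 0.673 in the same order, and without the most abundant gene of each group 0.921, 1.08, 1.09, 0.945, 1.19 and 1.05. The difference of median log2 ratios, taken with means instead, was 0.26 in papilloma against skin, -0.19 in tumour against papilloma, 0.063 in tumour against skin, 0.18 in mSCC-38 against mSCC-20 and 0.39 in mSCC-38 against the tumour. Leaving out each papilloma in turn gave 0.42 to 0.44 in papilloma against skin and -0.27 to -0.20 in tumour against papilloma; these leave no residual degree of freedom, so they are values without a test. The cause was not tested for any of these. No paired analysis was possible, because the labels do not say whether the papillomas share a mouse or the cultures a tumour. Only the papilloma group had more than 1 library. Depth did not limit the 38 genes, but 1 library a group leaves their spread unknown in skin, the tumour and both cultures.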
